A study of Mus musculus with 21 samples.

Results

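The joins described here connect a broken end at the switch region Sμ to the long stretch of chromosome 12 that runs from the IgH locus to the centromere. They were read by CSR-HTGTS-seq, which fixes 1 DNA end, the bait, and sequences what it was joined to, the prey. A join was included when its prey lay on chromosome 12 below position 114414909 of the mm9 mouse build. This border lies 250 kb from 114664909, the bait end used for all distances. Of 40530 junctions in 21 libraries, 1144 met this rule, or 2.82%, with 22 to 135 per library. Another 20411 junctions lay inside the IgH window around the bait, 141 lay on chromosome 12 beyond the window on the telomeric side, and 18834 went to other chromosomes. By its title, the series is about the role of chromatin loop extrusion in class switching.

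All libraries came from the mouse B lymphoma line CH12F3, which can be driven to switch to IgA, after 72 h of stimulation by anti-CD40 together with IL4 and TGF-β. Every genotype carried a deletion from Sμ to Sα on the non-coding IgH allele. NCdel (labelled CH12F3NC-delta, n = 6) had only this deletion. Iadel (I-alpha-delta, n = 6) also lacked Iα, from which the germline transcript of Sα starts. i3CBEc (n = 3) had 3 CTCF-binding elements (CBEs) inserted in NCdel cells, in the convergent orientation according to the labels. Iadel-i3CBEc (Ialpha-delta-i3CBEc, n = 3) had the 3 CBEs downstream of Cγ2a in cells without Iα. i3CBEc-3CBEdel (i3CBEc-3'CBEs-delta, n = 3) had the insertion and lacked the 3'CBEs, the CTCF sites at the far end of the constant genes. The labels do not say whether libraries of a genotype came from separate cultures or clones, so the p-values measure the spread between libraries only. Libraries held 1180 to 3513 junctions. i3CBEc-3CBEdel library 3 stood apart, with 158 joins to other chromosomes among 1773 junctions.

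Class switching starts when the deaminase AID acts on transcribed switch regions, whose DNA is rich in the motif AGCT, and the lesions become double-strand breaks. Most Sμ breaks are joined to another switch region inside the locus, mainly so that the DNA between is deleted. A smaller number is joined to breaks elsewhere, on the same chromosome or another, either at sites that AID also hits, often near the start of transcribed genes, or at scattered breaks. Ends on 1 chromosome meet more often the nearer they lie, and a few bases of shared sequence at a join, microhomology, mark one of the ways of end joining.

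A pair of 100-kb bins held the most centromeric joins, and they differ in sequence. The first, 81200001 to 81300000, is the bin in which the description of the region places Zfp36l1, the gene of an RNA-binding protein that speeds the decay of messages with AU-rich elements. The second holds joins whose reads, placed there by the authors' alignment, are arrays of AGCT copies like those of a switch region. The site is called the AGCT array below, although whether these reads come from it was not tested. The stretches below were read from the prey as the most frequent base at each position of the mm9 plus strand, with each AGCT in capitals (the motif reads the same on both strands). The third stretch, of the same length as the AGCT array, is the part of the IgH window next to the bait that shares the most 20-base words with the prey at the array.
Zfp36l1 bin (chr12:81213108-81213347): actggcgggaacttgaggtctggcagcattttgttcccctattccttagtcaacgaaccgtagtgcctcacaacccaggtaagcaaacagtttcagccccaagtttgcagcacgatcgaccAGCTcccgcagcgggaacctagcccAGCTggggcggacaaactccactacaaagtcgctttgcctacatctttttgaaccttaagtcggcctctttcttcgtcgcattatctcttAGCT
AGCT array (chr12:63383311-63383398): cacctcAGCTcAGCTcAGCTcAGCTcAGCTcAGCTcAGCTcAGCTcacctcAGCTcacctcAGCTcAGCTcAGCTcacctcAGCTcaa
IgH window (chr12:114662793-114662880): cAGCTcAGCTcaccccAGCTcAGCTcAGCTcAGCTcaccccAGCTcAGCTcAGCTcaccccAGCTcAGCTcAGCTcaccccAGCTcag
The Zfp36l1 stretch is the 240 bases of its bin with the most joins, 10 from 7 libraries, and holds 3 AGCT. Among RefSeq promoter windows (GRCm38.p6) cut to the same length, 12.8% held at least 3. The AGCT array and the window stretch each hold 13 AGCT in 88 bases, a number that 0 of 32544 promoter windows cut to that length reached. All 69 words of 20 bases in the window stretch also occurred in prey placed at the array. The window stretch, read from NCdel and Iadel libraries only, was picked for this count. Neither the count nor its number of AGCT is therefore a test. Bases at the array rested on 1 to 49 reads, with agreement as low as 50% at a position. Those of the Zfp36l1 stretch rested on 2 to 6 reads (lowest agreement 75%) and those of the window stretch on 16 to 49 (52.1%). Each of these stretches is thus a consensus of reads and not the reference sequence. No mm9 gene annotation was used, so exon, intron and untranslated parts are not given for these stretches.

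Deleting Iα was compared with the starting line to ask where Sμ ends go in cells that lack the start of Sα transcription. Centromeric joins made up a larger share of all junctions in Iadel than in NCdel, with no overlap between the libraries. In NCdel the share was 2.03% ± 0.580 (SD, n = 6), from 1.04% to 2.61%. In Iadel it was 3.41% ± 0.558 (n = 6), from 2.89% to 4.38%. The lowest library, NCdel 6, had a 95% Wilson interval of 0.688% to 1.57%, and the highest, Iadel 3, one of 3.71% to 5.16%. The difference of 1.38 percentage points, 1.68-fold, passed a two-sided exact permutation test (p = 0.00216, the smallest that 6 against 6 libraries allow, adjusted p = 0.0130 over 6 comparisons). In the 1 sequencing run that holds both groups, the difference was 0.709 points (3 against 3, no overlap, exact permutation p = 0.1, the smallest possible).

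Counted against joins to other chromosomes, the centromeric joins of Iadel and NCdel did not differ beyond their spread. NCdel had 5.82 ± 1.17 centromeric joins per 100 joins to other chromosomes and Iadel had 5.40 ± 0.531, a difference of -0.419 (exact permutation p = 0.519, adjusted p = 0.623). With all junctions outside the window as the denominator, the difference in share was -0.343 points and not called (adjusted exact permutation p = 0.652). Joins outside the window of any kind were also more frequent in Iadel, 10515 of 14644 junctions against 4418 of 11564 in NCdel. i3CBEc had a share of 2.40% ± 0.462, Iadel-i3CBEc of 3.07% ± 1.12 and i3CBEc-3CBEdel of 2.47% ± 0.803 (n = 3 each), and none of the 5 other comparisons passed the test (adjusted exact permutation p from 0.600 to 1). With 3 against 3 libraries the exact permutation p cannot go below 0.1, so those comparisons could not pass. With 3 against 6 its floor is 0.0119, which adjusts to 0.0714 if no other comparison is as low. These floors hold for every measure tested this way between groups, so a comparison that did not pass does not show equal groups.

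In i3CBEc-3CBEdel the ratio to other chromosomes was higher than in NCdel in each of its 3 libraries, but the test was not passed after adjustment. The 3 libraries had 9.67, 8.30 and 28.5 centromeric joins per 100 joins to other chromosomes, against 4.60 to 7.98 in the 6 NCdel libraries. The difference of 9.66 had an exact permutation p of 0.0119, the smallest that 3 against 6 allow, and an adjusted p of 0.0714. Without library 3 of i3CBEc-3CBEdel it was 3.16 (adjusted exact permutation p = 0.214), and without the joins of the Zfp36l1 bin it was 6.31 (adjusted exact permutation p = 0.0714). Against i3CBEc the difference was 8.68, and 5.50 without that bin (adjusted exact permutation p from 0.214 to 0.400). The i3CBEc libraries had 6.80 ± 1.51 and those of Iadel-i3CBEc 7.39 ± 2.89. Neither passed a comparison (adjusted exact permutation p from 0.214 to 0.700). The denominator of this ratio also differed, with 1198 joins to other chromosomes among 5342 junctions in i3CBEc-3CBEdel and 4150 among 11564 in NCdel. As a share of all junctions, centromeric joins made up 1.63%, 3.24% and 2.54% in the 3 libraries of i3CBEc-3CBEdel. The NCdel libraries had 1.04% to 2.61%, so on that scale the 2 groups overlap.

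**Figure D1:**
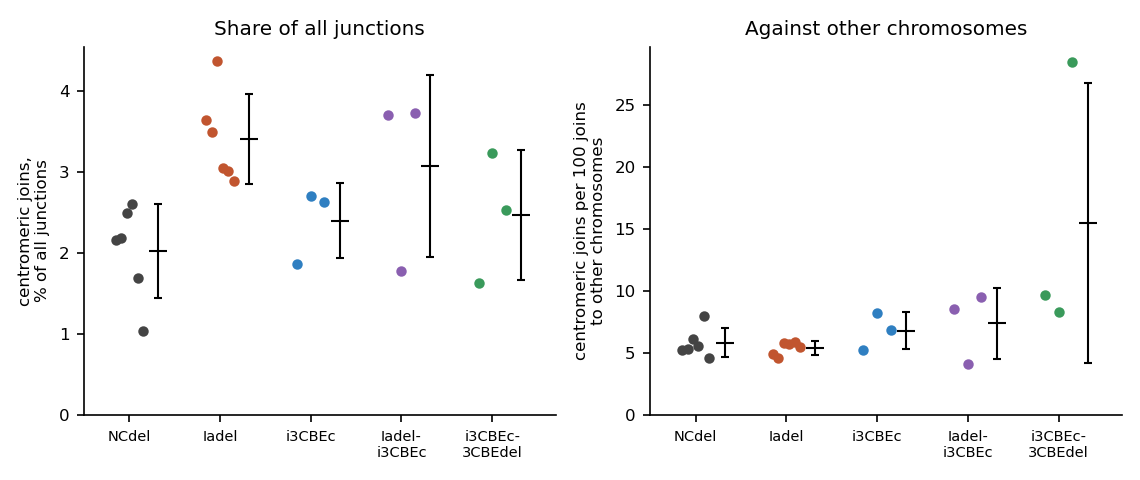
Centromeric joins in each library as a percent of all junctions (left) and per 100 joins to other chromosomes (right), by genotype on the x axis. Dots are libraries and the bars beside them are mean ± SD. The 6 Iadel libraries lie at 2.89% to 4.38%, above the 6 NCdel libraries on the left, and 1 i3CBEc-3CBEdel library lies at 28.5 on the right.

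Joins were densest within the first megabase, lay at a lower and similar density from 1 to 50 Mb, and were sparser beyond 50 Mb. Between 250 kb and 1 Mb from the bait there were 40 joins, or 53.3 per Mb. Of these, 18 lay in the single bin 113800001 to 113900000, and without it 22 joins were left, or 33.8 per Mb. The 3 successive steps of 250 kb in this band held 9, 7 and 24 joins, so the joins of the band did not thin out with distance. From 1 to 5 Mb there were 51, or 12.8 per Mb, and from 5 to 10 Mb again 51, or 10.2 per Mb. The density was 11.8 per Mb from 10 to 20 Mb, 12.8 from 20 to 50 Mb and 8.12 from 50 Mb to the last band edge at 111.6 Mb, where 7.29 remained without the AGCT array. Joins to the 19 other chromosomes had a density of 7.67 per Mb over 2456 Mb. Of the 1144 joins, 3.50% lay within 1 Mb, 7.95% within 5 Mb and 56.3% within 50 Mb, and the median distance was 40.7 Mb.

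Each library's band density was then divided by that library's own density on other chromosomes. In the band up to 1 Mb the median ratio was 6.63, and 18 of 21 libraries were above 1. Libraries had 0 to 8 joins in this band, and any library with at least 1 join there was above 1. The count of libraries above 1 is therefore the count with a join, and the median rests on few joins. Without the bin 113800001 to 113900000 the median ratio was 3.36, with 13 of 21 libraries above 1, and the same limit holds. The median ratio was 1.60 from 1 to 5 Mb and 1.40 from 5 to 10 Mb, with 16 of 21 libraries above 1 in both. From 10 to 20 Mb the ratio was 1.59 (19 of 21 above 1), and from 20 to 50 Mb 1.65 (20 of 21). Beyond 50 Mb it was 1.04, with 12 of 21 libraries above 1. The median ratio was thus highest in the first band, with or without that bin, and lowest beyond 50 Mb.

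The border of the locus itself was empty. The nearest centromeric join lay 300.62 kb from the bait, at 114364289 in NCdel library 2, and the farthest join inside the window lay at 220.761 kb in i3CBEc-3CBEdel library 3. No chromosome 12 junction of the 21 libraries fell between them, so the rule's border at 250 kb runs through a gap. The next centromeric joins lay at 316.247 kb (Iadel 2), 333.509 kb (Iadel-i3CBEc 1) and 342.848 kb (NCdel 3). Just inside the border, the 6 nearest junctions all came from i3CBEc-3CBEdel, 5 from library 3 and 1 from library 2, at 219.558 to 220.761 kb. These values describe the border and were not tested.

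By genotype, i3CBEc-3CBEdel had the largest part of its joins within 1 Mb, which rested on library 3. It had 13 such joins of 135, namely 1, 4 and 8 in its 3 libraries, while NCdel had 9 of 236, Iadel 6 of 521, and i3CBEc and Iadel-i3CBEc 6 each of 91 and 161. Without library 3, i3CBEc-3CBEdel had 5 of 90, a smaller part than in i3CBEc. Per 1000 junctions outside the window, the 3 libraries had 3.30, 4.71 and 38.5, those of i3CBEc had 1.90, 2.22 and 8.25, and those of Iadel-i3CBEc 3.96, 1.39 and 1.58. NCdel had 2.09 ± 1.63 (n = 6) and Iadel 0.635 ± 0.864 (n = 6). The NCdel libraries ranged from 0 to 3.93, so library 1 of i3CBEc-3CBEdel lies among them, and i3CBEc library 3 lies above libraries 1 and 2 of i3CBEc-3CBEdel. The percent of centromeric joins within 5 Mb was 10.8% ± 4.97 in NCdel, 5.58% ± 5.32 in Iadel, 15.2% ± 3.93 in i3CBEc, 6.15% ± 2.13 in Iadel-i3CBEc and 11.6% ± 5.40 in i3CBEc-3CBEdel. Both genotypes without Iα had the lower means, but no comparison passed the test (adjusted exact permutation p from 0.325 to 0.833). Iadel against NCdel differed by -5.27 points (exact permutation p = 0.108). i3CBEc against NCdel differed by 4.35 points, and by 8.55 points when joins within 10 Mb were counted (exact permutation p = 0.0119, the smallest that 3 against 6 allow, adjusted p = 0.0714). Iadel-i3CBEc against i3CBEc differed by -9.05 points with no overlap (exact permutation p = 0.1, the smallest that 3 against 3 allow).

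**Figure D2:**
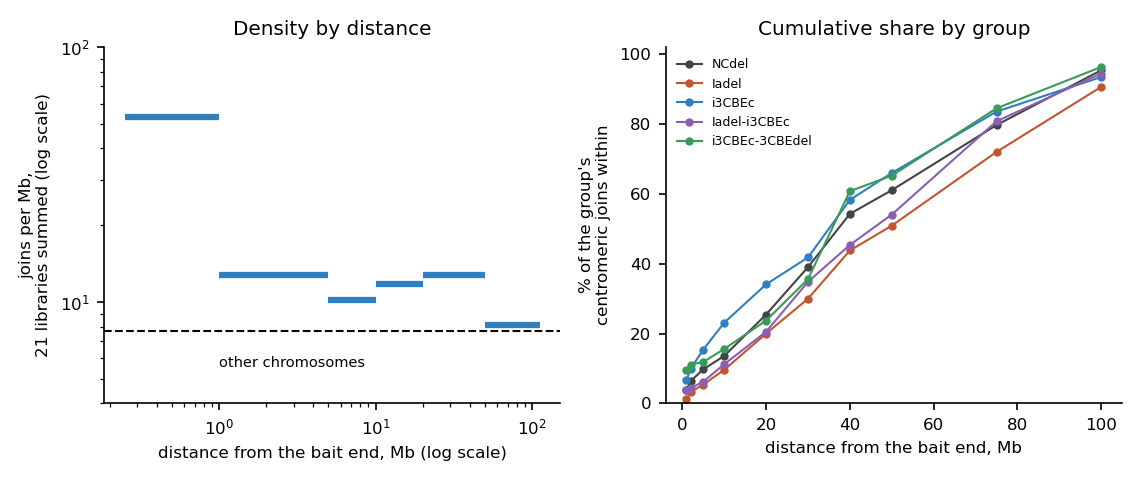
Left, joins per Mb in 6 bands of distance from the bait end, 21 libraries summed, both axes on a log scale. The dashed line is the density on other chromosomes, 7.67 joins per Mb, and the first band lies at 53.3. Right, percent of each genotype's centromeric joins within a given distance; the Iadel line reaches 50.9% at 50 Mb and that of i3CBEc 65.9%.

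Most 100-kb bins held no join or a few. Of 1114 bins in the span, 612 held a join, 358 of them exactly 1 and 158 exactly 2. The bins with 1 or 2 joins carried 58.9% of the joins. At the other end, 5 bins had at least 8 joins in at least 3 libraries, and together they held 151 joins, 13.2% of all. They are described in turn.

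The Zfp36l1 bin, 33.4 Mb from the bait, held 54 joins in 18 of 21 libraries, the most of any centromeric bin. Its 54 joins lay at 54 different positions, and 30 were inversional and 24 deletional. Of them, 44 from 16 libraries lay within 4460 bases, 81210291 to 81214750. That cluster had 2 denser parts, seen in the data and not tested. The part 0.5 to 2.5 kb to the centromeric side of its centre held 20 joins, 9 deletional and 11 inversional. The part 0.5 to 1.5 kb to the telomeric side also held 20, 12 deletional and 8 inversional. Within 0.5 kb of the centre there were 3 joins, all from i3CBEc-3CBEdel. NCdel had 4 joins in the centromeric part and 7 in the telomeric part, and i3CBEc-3CBEdel had 10 and 7. The printed stretch lies in the telomeric part.

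**Figure D3:**
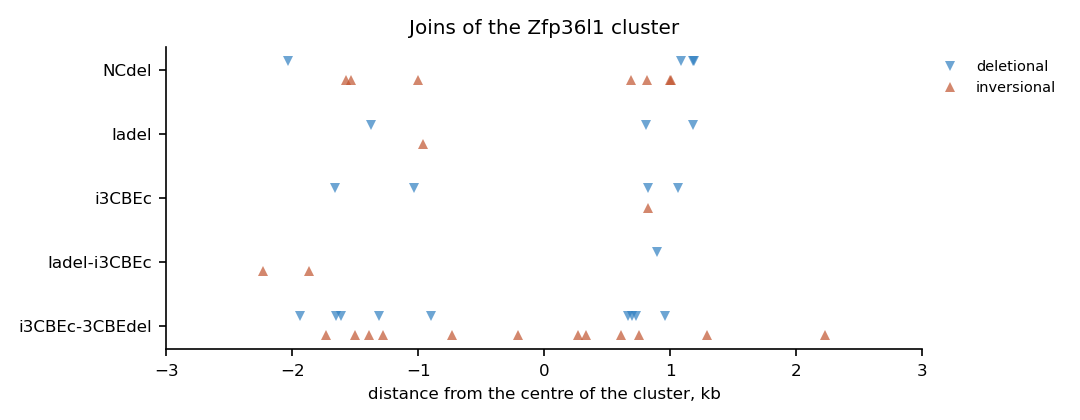
The 44 joins of the Zfp36l1 cluster by distance from its centre in kb (x axis, centromeric side negative) and genotype (rows). Triangles pointing down are deletional joins and those pointing up inversional joins. Joins group 0.5 to 2.5 kb to the left and 0.5 to 1.5 kb to the right of the centre, and the 3 nearest the centre are from i3CBEc-3CBEdel.

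The Zfp36l1 bin was used most in i3CBEc-3CBEdel. Its libraries had 4, 6 and 14 joins there, or 13.2, 7.07 and 67.3 per 1000 junctions outside the window. The NCdel libraries had 0, 2, 2, 2, 3 and 3 joins, or 3.39 ± 2.91 per 1000 (from 0 to 7.85). Those of i3CBEc had 2, 3 and 2, or 4.86 ± 1.56. The genotypes without Iα had the lowest levels, with 0.809 ± 0.815 in Iadel (2, 1, 1, 2, 1 and 0 joins) and 1.91 ± 2.50 in Iadel-i3CBEc (1, 0 and 3 joins). On this scale, library 2 of i3CBEc-3CBEdel lay within the range of NCdel, and libraries 1 and 3 lay above it. Per 1000 of all junctions, its 3 libraries had 2.51, 3.03 and 7.90, all above the NCdel range of 0 to 1.82. The means on that scale were 1.03 in NCdel, 0.510 in Iadel and 0.848 in Iadel-i3CBEc. Library 3 of Iadel-i3CBEc (2.07) then lay above every NCdel library. The bin made up 17.8% of the centromeric joins of i3CBEc-3CBEdel, 7.69% in i3CBEc, 5.08% in NCdel, 2.48% in Iadel-i3CBEc and 1.34% in Iadel.

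Bins were tested by limma on log2 of joins per 1000 junctions outside the window plus 0.5, over the 31 bins of the whole genome outside the window with at least 8 joins in at least 3 libraries. In i3CBEc-3CBEdel against NCdel, 25.8% of the 31 bins were called at an adjusted p under 0.05, all higher, and 2 of the 5 centromeric bins were among them. The median log2 difference of all 31 bins was 0.83. For the Zfp36l1 bin the log2 difference was 2.76 (SE 0.86, limma adjusted p = 0.00760). For the bin 113800001 to 113900000, 0.815 Mb from the bait, it was 3.47 (SE 0.85, limma, adjusted p = 0.000796). Per 1000 of all junctions, where the median of all bins was 0.30, the log2 differences were 1.69 (limma, adjusted p = 0.0304) and 1.73 (limma, adjusted p = 0.00964), in the same order. Both calls rest on library 3, without which the log2 differences were 1.85 (limma, adjusted p = 0.237) and 2.42 (limma, adjusted p = 0.0503). That of the Zfp36l1 bin was also lost with a pseudocount of 0.1 (limma, adjusted p = 0.0679) and over all bins with 4 joins in 2 libraries (limma, adjusted p = 0.230). Both bins also pass the filter on joins without i3CBEc-3CBEdel, with 30 joins in 15 libraries and 9 joins in 7. The runs of i3CBEc-3CBEdel hold no other genotype, and neither does that of i3CBEc. In every comparison with either of them, an effect of the run cannot be told apart from that of the genotype.

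Against i3CBEc, which carries the insertion with the 3'CBEs in place, 6.45% of the 31 bins were called in i3CBEc-3CBEdel, and 0 of the 5 centromeric bins by limma, of which 2 had an unadjusted p under 0.05. The Zfp36l1 bin had a log2 difference of 1.87 (SE 1.00, limma, adjusted p = 0.145), against a median of 1.14 over all bins. The bin 0.815 Mb away had 1.13 (SE 0.98, limma, adjusted p = 0.407). In each of the other 4 comparisons 0% of bins were called by limma, and 2 to 5 of 31 had an unadjusted p under 0.05. For the Zfp36l1 bin, Iadel against NCdel gave -1.32 (SE 0.71, limma, adjusted p = 0.639) and i3CBEc against NCdel 0.89 (SE 0.86, limma adjusted p = 0.726).

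The bin 113800001 to 113900000 held 18 joins in 10 libraries, at 18 positions, 8 deletional and 10 inversional. Of these, 10 lay within 3136 bases, 113825648 to 113828783, in 7 libraries. i3CBEc-3CBEdel had 1, 2 and 6 joins there and i3CBEc 1, 1 and 2, so that all 6 libraries with the insertion and Iα had at least 1. NCdel had 1 join in 6 libraries, Iadel 3 in 2 libraries and Iadel-i3CBEc 1. A pair of the Iadel joins came from library 1, 2 bases apart, each with 14 inserted bases, and their prey held a run of TG or CA copies. For i3CBEc against NCdel the log2 difference was 2.34 (SE 0.85, limma, unadjusted p = 0.00613, adjusted p = 0.190). Run and genotype cannot be told apart in this comparison or in the pattern over those 6 libraries. The stretch of this cluster with the most joins read in full is shown for comparison with that of Zfp36l1, again with AGCT in capitals.
Bin at 0.815 Mb (chr12:113827479-113827638): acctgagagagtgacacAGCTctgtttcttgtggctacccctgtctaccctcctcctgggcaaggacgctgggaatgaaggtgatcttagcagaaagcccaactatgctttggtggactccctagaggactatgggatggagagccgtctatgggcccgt
These 160 bases hold 2 joins and 1 AGCT. They rested on 1 to 2 reads per base and are also read from the prey, not from the reference. At this length, 54.7% of promoter windows held at least 1.

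The bin 56500001 to 56600000, 58.1 Mb from the bait, held 19 joins in 11 libraries, 10 deletional and 9 inversional. Of these, 14 lay within 4284 bases, 56589027 to 56593310, in 9 libraries. It was found in 4 of 5 genotypes, with 6 joins each in Iadel and Iadel-i3CBEc, 4 in i3CBEc-3CBEdel and 3 in NCdel. The 3 libraries of i3CBEc had 0 of 1461 junctions outside the window. Over all libraries the bin held 19 of 20119, a rate at which few joins would fall among 1461. No comparison called it by limma (adjusted p from 0.145 to 0.996).

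The bin 86900001 to 87000000, 27.7 Mb from the bait, held 9 joins in 8 libraries and gave a match to a named gene. The prey of 2 joins, at 86940775 in Iadel-i3CBEc library 2 and at 86940754 in i3CBEc-3CBEdel library 2, shared bases with the RefSeq promoter window of Jdp2. The gene encodes a transcription factor that pairs with Jun proteins, and it was chosen for mention after this match was seen. In the build of that table (GRCm38.p6) the window lies on the plus strand from chromosome 12 position 85599768, and its first 100 bases are printed with the bases shared with the first of these prey in capitals.
Jdp2 promoter window: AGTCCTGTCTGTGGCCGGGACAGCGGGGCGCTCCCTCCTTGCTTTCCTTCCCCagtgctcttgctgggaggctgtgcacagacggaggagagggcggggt
The first prey shared 53 bases and the second 32 of these, both read against the direction of the gene. Their microhomologies were 6 and 4 bases. No group difference of this bin was called (limma, adjusted p from 0.145 to 0.935).

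Prey were also matched to promoter windows. Of 22 chromosome 12 genes with roles in B cells or DNA repair that were listed for this search, among them Zfp36l1, Batf, Nfkbia and Yy1, 21 had a promoter window and 0 were matched by a 30-base word of a centromeric prey. No prey of the Zfp36l1 bin shared such a word with the window of that gene. Over all 1277 windows of the chromosome, 23 joins, 2.01% of the centromeric joins, matched 12 genes. With so few matches, none would be likely among 21 genes. The lack of a match, for Zfp36l1 too, thus does not show that joins avoid these windows. Among joins to other chromosomes, 231 matched a window of their chromosome, or 1.23%. Of the 23 centromeric matches, 10 were assigned to Gm32370, at 9 positions from 56509613 to 113816297. All 10 prey held at least 10 copies of TG or CA in a row, so these matches place no join at that gene. The 2.01% includes them, and matches on other chromosomes were not searched for such runs, so the 2 percents are not compared.

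The other bins among the 10 with the most joins had few. The bin at 3100001, 111.5 Mb away near the start of the assembled chromosome, had 7 joins, 5 of them within 214 bases. The bin at 114100001, 0.515 Mb from the bait, had 6 joins in 5 libraries, and 5 of the 6 had a microhomology of 2 bases or more. The bins at 80200001, 102200001 and 113000001 had 5 joins each in 5 libraries, and all 5 at 102200001 were inversional.

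The AGCT array in the bin 63300001 to 63400000, 51.3 Mb from the bait, held 51 joins in 19 of 21 libraries. All 51 lay in the 88 printed bases, at 19 positions, and 43 of 51 were deletional. Their prey had 11.7 AGCT per 100 bases, against 0.505 in the other 1093 centromeric joins. A mismatch to mm9 was present in 94.1% of them, at 6.70 per 100 bases, against 12.4% of the others, at 0.423 per 100 bases. In 48 of 51, at least 50% of the 20-base words of the prey also occurred in prey inside the IgH window, against 3 of 1093 other centromeric joins and 205 of 18834 joins to other chromosomes. Inserted bases were present in 66.7%, and the median prey length was 51 bases, against 105. By genotype there were 9 joins in NCdel, 17 in Iadel, 3 in i3CBEc, 13 in Iadel-i3CBEc and 9 in i3CBEc-3CBEdel, and no comparison called the bin by limma (adjusted p from 0.0965 to 0.996). Results over libraries for orientation, microhomology and motif content are given with and without these 51 joins. Pooled percents of all centromeric joins, and orientation by distance, include them.

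**Figure D4:**
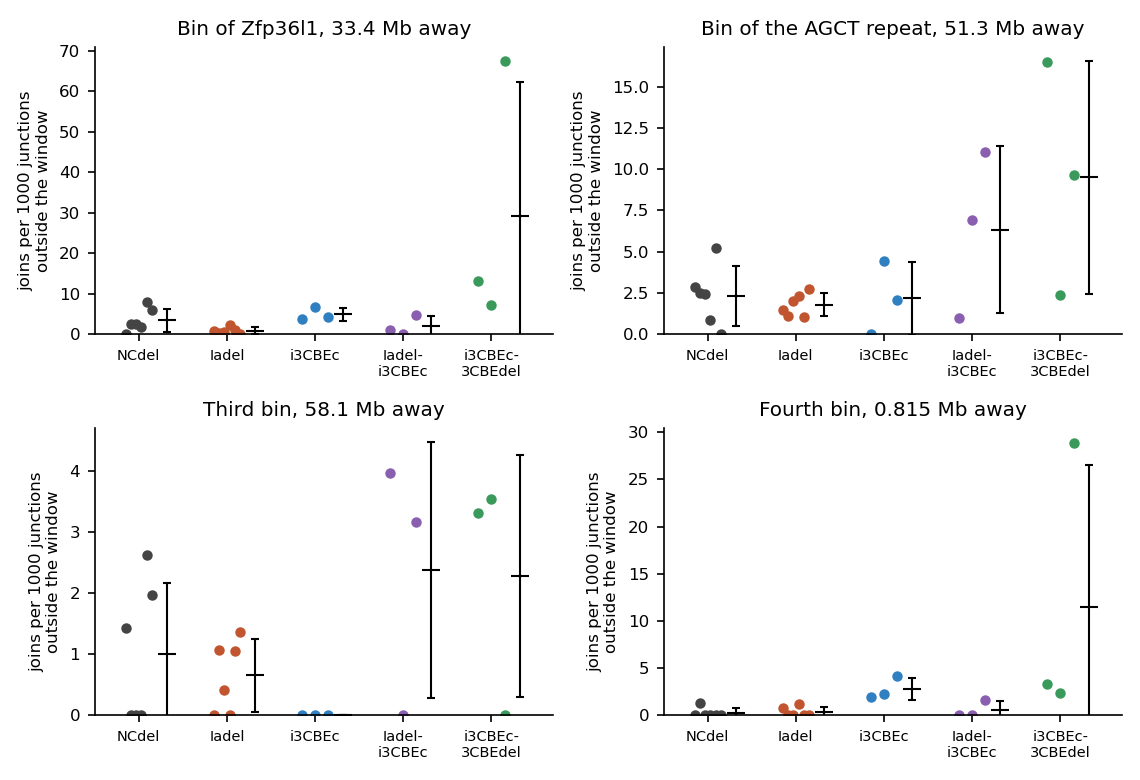
Joins per 1000 junctions outside the window in each library (dots) and mean ± SD (bars, cut at 0) for the 4 bins with the most joins, by genotype on the x axis. In the Zfp36l1 bin, i3CBEc-3CBEdel libraries lie at 7.07 to 67.3 and the 6 Iadel libraries at 0 to 2.30. The y axes differ.

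Deletional and inversional joins were nearly equal in number. A join was called deletional when the prey ran on in the direction of the bait, so that the DNA between would be lost, and inversional otherwise. Of the 1144 joins, 574 were deletional and 570 inversional. The mean over libraries differed from 50% by 0.212 points (SD 7.21, n = 21, 10 libraries above and 9 below, sign-flip permutation p = 0.895). Without the AGCT array it differed by -1.82 points (permutation p = 0.231). By genotype the percent deletional was 50.6% ± 9.57 in NCdel, 47.2% ± 7.29 in Iadel, 49.1% ± 8.28 in i3CBEc, 53.9% ± 3.40 in Iadel-i3CBEc and 52.9% ± 4.16 in i3CBEc-3CBEdel. None differed from 50% (exact sign-flip permutation p from 0.25 to 1, where 3 libraries cannot go below 0.25), and no comparison passed (adjusted exact permutation p from 0.770 to 0.845). Without the AGCT array the means were 48.7% in NCdel, 45.9% in Iadel, 49.4% in i3CBEc, 48.9% in Iadel-i3CBEc and 49.9% in i3CBEc-3CBEdel. With distance, 55.0% of the 40 joins up to 1 Mb were deletional, 45.1% from 1 to 5 Mb, 41.2% from 5 to 10 Mb, 40.7% from 10 to 20 Mb, 50.8% from 20 to 50 Mb and 53.0% beyond. The last band includes the 51 joins of the array, of which 43 were deletional.

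Centromeric joins had microhomology more often than joins inside the window. Microhomology of 2 bases or more was present in 45.9% ± 9.79 of centromeric joins (mean ± SD of 21 libraries), 45.2% ± 5.09 of joins to other chromosomes and 35.1% ± 2.64 of joins inside the window. Within libraries, centromeric joins exceeded those inside the window by 10.8 points (SD 10.9, 18 of 21 libraries above, sign-flip permutation p = 0.000380). Without the AGCT array the excess was 12.6 points (19 of 21, permutation p = 9.0e-05). Against other chromosomes the difference was 0.753 points (SD 8.95, 11 libraries above and 10 below, permutation p = 0.707). Pooled over libraries, inserted bases were found in 11.1% of centromeric joins, 8.98% of joins to other chromosomes and 25.3% of those in the window. A microhomology of 4 bases or more was found in 20.5%, 21.6% and 11.1%, in the same order. The Zfp36l1 bin had inserted bases in 18.5% of its 54 joins and 2 bases or more of microhomology in 40.7%.

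**Figure D5:**
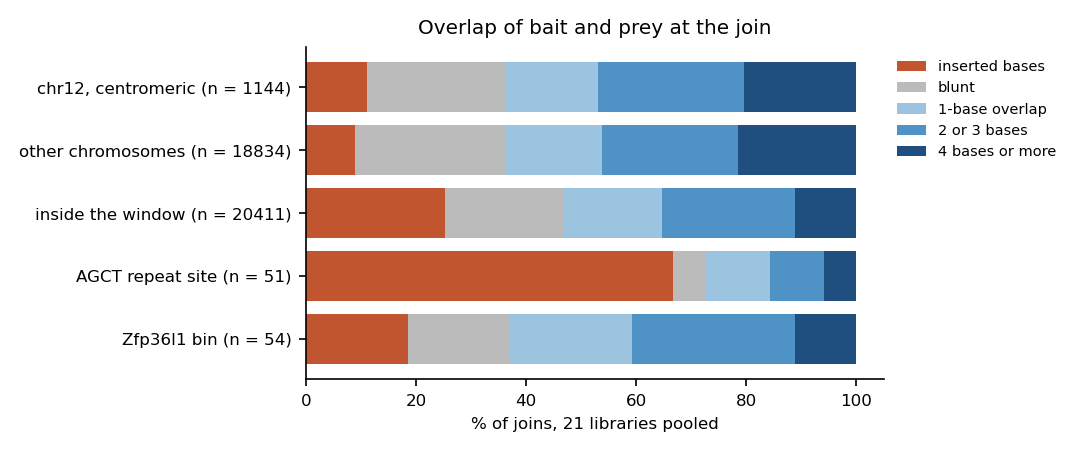
Percent of joins (x axis, 21 libraries pooled) with inserted bases, a blunt join, or an overlap of 1, 2 or 3, or at least 4 bases between bait and prey, for centromeric joins and 4 other sets. Inserted bases make up 11.1% of centromeric joins, 25.3% inside the window and 66.7% at the AGCT array.

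Between genotypes, microhomology at centromeric joins did not pass a test. The percent with 2 bases or more was 45.4% ± 9.29 in NCdel, 50.2% ± 7.40 in Iadel, 40.0% ± 17.3 in i3CBEc, 51.4% ± 5.46 in Iadel-i3CBEc and 38.9% ± 7.09 in i3CBEc-3CBEdel (adjusted exact permutation p from 0.800 to 1). Without the AGCT array the means were 47.1%, 51.5%, 41.2%, 55.1% and 40.9%, in the same order. Iadel against NCdel differed by 4.83 points (exact permutation p = 0.336). Single libraries ranged from 23.5% in i3CBEc 2 to 59.1% in NCdel 6, each from few joins.

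AGCT in the prey did not differ from other chromosomes beyond the spread between libraries. Among prey of at least 100 bases, the first 100 held AGCT in 39.8% ± 8.77 of centromeric joins, 40.3% ± 3.34 of joins to other chromosomes and 87.0% ± 6.32 of joins inside the window (mean ± SD of 21 libraries). The within-library difference from other chromosomes was -0.548 points (SD 10.4, 9 libraries above and 11 below, sign-flip permutation p = 0.809), and without the array -1.12 points (permutation p = 0.618).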

How the data were processed

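CSR-HTGTS-seq junctions of 21 libraries were used. Per the submitters' processing notes the reads were aligned to mm9 and Bowtie2 was used; other settings are not given in the sources used here. The deposited tables give 1 line per junction, with positions, read coordinates and other values in bases and a mapping score from the authors; no line carries a filter flag. From Iadel library 4, 3075 reads that are also in libraries 5 and 6 were removed. The window ran from 250 kb on the centromeric side to 20 kb beyond the bait. The most frequent bait end was 114664909 without the inserted CBEs and 99 bases higher with them. Distances of all libraries were counted from 114664909. Microhomology is the overlap of bait and prey on the read.

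Group means were compared by two-sided exact permutation over libraries, with Benjamini-Hochberg adjustment over 6 comparisons of a measure; within-library differences by sign flips (100000 draws). Bins were tested with limma 3.58.1 in R 4.3.3. The fit was also run on simulated counts that held counting error only. They had no added spread between libraries or runs, so they do not test the calls made here. Python 3.11.15 was used. The sequencing run of each library was taken from its read names. Wilson intervals cover counting error only, since no molecular identifiers are given. Depth was 1180 to 3513 junctions per library. Bins named are that of Zfp36l1, the 10 with the most joins and those called; genes named are those matched by 3 or more joins and the listed genes, plus Jdp2, which meets neither rule and was added after its 2 matches were seen. The members and lists were chosen with earlier results of these data known. Values without the array, and without the bin 113800001 to 113900000 in the nearest band, were added after seeing the data.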

Additional observations from a re-analysis of the deposited data

Results flagged for a closer look

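Of 18 combinations of measure and genotype with 6 libraries, 1 held a library far from the others, about as many as chance gives, since 1 in 20 groups is picked out without cause. Iadel library 4 had 2.30 joins within 1 Mb of the bait per 1000 junctions outside the window, while the other 5 Iadel libraries had 0 to 0.743. The value rests on 2 joins.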

How the results depend on the processing

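The excess of Iadel over NCdel in the share of all junctions kept its direction and call with repeats collapsed, prey of at least 50 bases, Iadel library 4 as deposited, without the AGCT array and without any 1 library (1.18 to 1.499 points, adjusted exact permutation p up to 0.0260). With same-numbered libraries as a replicate block it was 1.38 points (exact sign-flip permutation p = 0.03125, adjusted p = 0.188). That p is the smallest that 6 pairs allow, so the call could not be kept after adjustment. In the run with both groups the difference was 0.709 and over junctions outside the window -0.343. Same-numbered libraries did not deviate together (21 pairs, correlations from -0.347 to 0.195, 4 above 0.1), so the numbers were not taken as pairs.

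The values that follow are differences that passed no test, under settings that turned their sign; the cause was not tested. For the share, Iadel-i3CBEc against Iadel was 0.0880 in the run that holds both and 1.63 over junctions outside the window (-0.669 to 0.309 without 1 library), and i3CBEc-3CBEdel against i3CBEc was -0.0259 without the array (-0.314 to 0.486). Per 100 joins to other chromosomes, Iadel against NCdel was 0.117 in the run that holds both (-0.663 to 0.0122 without 1 library), and Iadel-i3CBEc against i3CBEc ranged from -0.466 to 2.24. Within 5 Mb, i3CBEc-3CBEdel against NCdel was -0.0488 with the replicate block (-2.31 to 2.73 without 1 library), Iadel-i3CBEc against Iadel -1.26 with prey of at least 50 bases (-0.546 to 2.43), and i3CBEc-3CBEdel against i3CBEc 2.73 within 1 Mb. Deletional joins within 5 Mb alone gave 15.7 for Iadel and 29.2 for i3CBEc against NCdel, -34.3 for Iadel-i3CBEc against Iadel, -47.8 for it against i3CBEc, and -13.1 for i3CBEc-3CBEdel against i3CBEc. These percents rest on 0 to 9 joins per library, with 6, 2 and 2 in Iadel-i3CBEc. Iadel library 5 had 0 and gave no value, and 1 join more or less can change them greatly. For orientation at all distances without the array, i3CBEc against NCdel was 0.667 (-5.82 to 2.44 without 1 library) and Iadel-i3CBEc against i3CBEc -0.480. With the replicate block, i3CBEc-3CBEdel against NCdel was -4.14 (-0.514 to 4.78), and against i3CBEc it ranged from -0.105 to 8.15. Over all libraries the difference from 50% was -0.366 with prey of at least 50 bases, -0.0548 beyond 5 Mb and -1.82 without the array (-0.420 to 1.02). For microhomology, Iadel-i3CBEc against Iadel was -2.02 with a minimum of 1 base and -2.71 with 4 (-1.74 to 3.68), i3CBEc against NCdel ranged from -14.4 to 2.88, and i3CBEc-3CBEdel against i3CBEc from -9.35 to 7.92. Against other chromosomes it was -0.153 with prey of at least 50 bases, -0.0171 with 1 base and -1.72 with 4 (-0.134 to 1.86). For AGCT the difference was 0.327 in 50 bases (-1.64 to 0.159).

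The 8 bins called between i3CBEc-3CBEdel and NCdel became 5 with a pseudocount of 0.1, 1 with no filter and 2 with bins of 1 Mb (3 to 11 without 1 library, 3 without i3CBEc-3CBEdel 3). The 2 called against i3CBEc became 6 with a pseudocount of 2, 0 with 4 joins in 2 libraries, 0 with bins of 1 Mb, 0 per 1000 of all junctions and 1 with no filter (2 to 8 without 1 library, 6 without i3CBEc-3CBEdel 1 and 8 without i3CBEc-3CBEdel 2). Iadel-i3CBEc against Iadel had 1 bin with no filter and 1 with the replicate block, and against i3CBEc 1 with no filter, 1 per 1000 of all junctions and 0 to 1 without 1 library. With 22 to 135 centromeric joins per library, a percent of one library moves by several points with 1 or 2 joins, which limits every comparison of orientation and microhomology. Within 10 Mb in place of 5 Mb, i3CBEc against NCdel was 8.55 points in place of 4.35.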
